A study of Bos taurus with 54 samples.

Results

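The genes described here are 10 interferon-stimulated antiviral genes (ISG15, MX1, MX2, IFIT1, IFIT2, IFIT3, IFI6, IFI44, RSAD2 and USP18), chosen by name for their known function from the 32637 genes counted in the blood of Holstein calves. The choice was made with earlier results of these data known. Of the 10, 9 were matched by symbol and IFIT1 was not analysed here. Of these 9, 8 had enough reads to be tested in each kit and USP18 did not. Blood was drawn from 15 male calves in climate-controlled rooms, in the morning under thermoneutral conditions (TN) and in the evening directly after 12 h of heat stress (HS). The red cells were lysed before RNA was extracted, and each RNA sample went into a Takara SMART-Seq v4 3′ DE library, a Lexogen QuantSeq 3′ library, or both. Both kits prime on the poly-A tail and read the 3′ end of a transcript, so 1 transcript gives about 1 countable fragment. No genotype or further treatment separates the groups, and heat stress and time of day cannot be told apart because every control sample was taken in the morning and every heat stress sample in the evening.

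There were 54 libraries, 27 per kit, from 29 RNA samples. Animal 20, with 1 library per kit, was left out of every comparison because the sources give different times for it, which leaves 13 control and 13 heat stress libraries per kit and 12 calves per kit with both times. The sample numbers form 2 series, called run 1 (8 calves) and run 2 (7 calves, animal 20 among them), which are not labelled as batches. Counts on genes ranged from 5140595 to 20699030 per Takara library and from 4516761 to 58521751 per Lexogen library, where the deepest is the heat stress library of animal 15. Levels are given as CPM, a gene's count scaled to the library's total count on genes, fold changes come from edgeR after TMM scaling, and adjusted p-values cover all genes tested with a threshold of 0.05.

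Type I interferons are secreted by cells that sense viral nucleic acid. They bind the receptor pair IFNAR1 and IFNAR2, whose kinases JAK1 and TYK2 activate transcription factors that switch on a large set of interferon-stimulated genes in the same cell and its neighbours. The summed level of such genes in blood leukocytes is widely used as a readout of interferon exposure. IFIT2 and IFIT3 belong to a family that binds viral RNA and blocks its translation. MX1 and MX2 are dynamin-like GTPases that trap viral components, and RSAD2 (viperin) makes a nucleotide that ends viral RNA chains. ISG15 is a ubiquitin-like protein that is attached to other proteins, and USP18 removes it and also dampens the receptor. IFI6, a small membrane protein, and IFI44 are induced by interferon and restrict the growth of several viruses.

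In ARS-UCD2.0, IFIT2 (chromosome 26, 11028758 to 11036942) and IFIT3 (chromosome 26, 11044042 to 11054721) are neighbours, and both overlap the annotated span of LIPA. MX2 (chromosome 1, 141621179 to 141656965) and MX1 (chromosome 1, 141668304 to 141706499) are separated by 11338 bases. ISG15 is on chromosome 16, IFI6 on 2, IFI44 on 3, RSAD2 on 11 and USP18 on 5. The counts used here ignore strand. Reads on the opposite strand were at most 2.30% of the count of any of the 8 tested genes (IFIT2, Takara), against 20.6% for USP18 in Takara libraries.

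None of the 8 genes tested passed the threshold between heat stress and control in either kit, which does not show that their levels were equal. In Takara libraries 0 of 8 passed edgeR's threshold, where 28.9% of the 12620 genes tested passed it (18.4% higher and 10.5% lower at heat stress). Of the 8, 1 (IFIT3) had an unadjusted p under 0.05, as had 5166 of all 12620 genes. In Lexogen libraries 0 of 8 passed, against 5.55% of 11108 genes (5.09% higher and 0.459% lower). Again only IFIT3 of the 8 had an unadjusted p under 0.05, as had 1877 of all 11108 genes. DESeq2 also called 0 members in each kit. With the animal as a block the Lexogen calls over all genes went from 616 to 66, with 0 of 8 members among them. The median log2 fold change of the 8 was −0.33 in Takara, where the median of all genes was −0.05, and −0.17 in Lexogen, where it was −0.08. The estimate was below 0 for 7 of 8 genes in Takara and 6 of 8 in Lexogen. The estimates of these genes were less precise than most in Takara. Their median standard error on the log2 scale, which includes the spread between calves, was 0.35, against 0.18 over all genes. In Lexogen it was 0.39 against 0.42.

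IFIT3 stood at the other end of the group from the rest. In Takara libraries its level ran from 83.6 through a median of 394.9 to 820.9 CPM in control, and from 130.2 through 493.5 to 1193 CPM at heat stress. In Lexogen libraries it ran from 49.2 through 73.0 to 292.9 CPM in control and from 51.9 through 155.0 to 326.4 CPM at heat stress. The groups overlap in both kits. The fold change was 1.73 in Takara (log2 0.79 ± 0.34 SE, n = 13 and 13, edgeR adjusted p = 0.083) and 1.79 in Lexogen (log2 0.84 ± 0.30 SE, n = 13 and 13, edgeR adjusted p = 0.10). IFIT3 was higher at heat stress in 7 of 12 calves in Takara and 10 of 12 in Lexogen, where 5.03% of all genes were higher in 10 or more pairs. The Lexogen estimate is sensitive to animal 7, which gave the highest IFIT3 control value and has no Lexogen heat stress library: without it the log2 fold change was 1.11 and the edgeR adjusted p = 0.0117. Without animal 3 the Takara estimate was 0.86 with an edgeR adjusted p = 0.0488, and with total counts as library size it was 0.46. Over all alternatives the adjusted p of edgeR or DESeq2 ran from 0.0488 to 0.26 in Takara and from 0.0117 to 0.25 in Lexogen.

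The estimates of IFIT2 lay nearer to 0, though no test compared the IFIT genes with each other. IFIT2 ran from 86.5 through 258.8 to 718.0 CPM in Takara control libraries and from 67.4 through 228.4 to 566.4 CPM at heat stress, a log2 fold change of −0.07 (95% interval −0.77 to 0.64). In Lexogen it ran from 90.2 through 254.9 to 1156 CPM in control and from 124.0 through 438.1 to 828.2 CPM at heat stress, a log2 fold change of 0.17 (95% interval −0.53 to 0.87). The control range covers nearly the whole heat stress range in both kits.

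**Figure D1:**
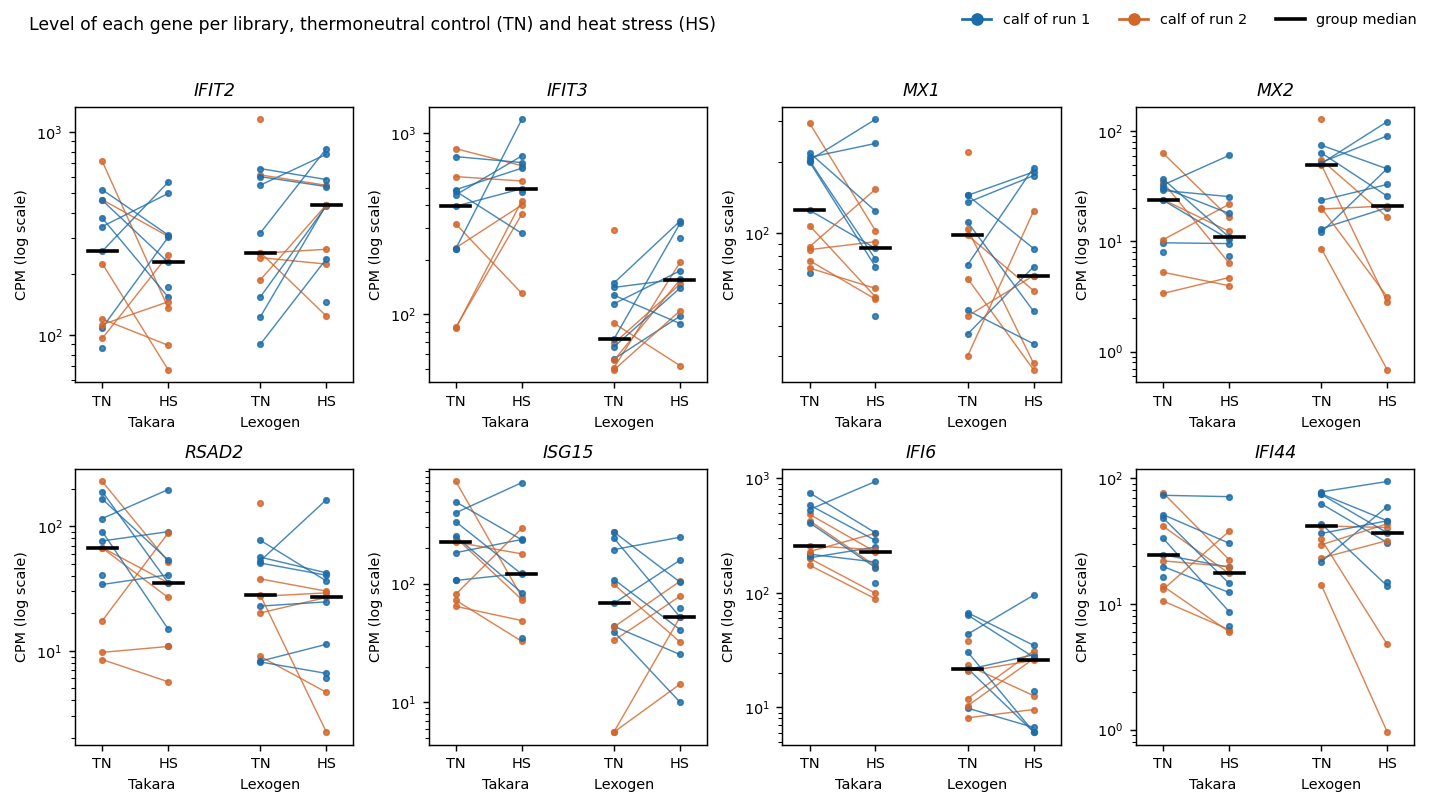
Level of each of the 8 tested genes in CPM (log axis) in every library, with lines joining the control (TN) and heat stress (HS) library of a calf, blue for run 1 and orange for run 2, and black bars for group medians. The control and heat stress values overlap for every gene in both kits, and each panel holds lines that go up and lines that go down.

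The GTPases and RSAD2 were spread widely in both states. MX1 ran from 67.4 through 124.9 to 293.5 CPM in Takara control libraries and from 44.1 through 85.9 to 304.8 CPM at heat stress (log2 fold change −0.22, 95% interval −0.79 to 0.35). MX2, with far fewer reads, ran from 3.38 through 23.995 to 63.2 CPM and from 3.97 through 10.97 to 60.5 CPM (log2 fold change −0.42, 95% interval −1.23 to 0.38). RSAD2 ran from 8.51 through 67.4 to 229.5 CPM and from 5.64 through 35.3 to 197.6 CPM (log2 fold change −0.60, 95% interval −1.58 to 0.39). For each of these 3 genes the median was lower at heat stress and the ranges overlapped almost completely. In Lexogen the log2 fold changes were −0.02 for MX1, −0.25 for MX2 and −0.31 for RSAD2, each with an interval that includes 0.

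ISG15, IFI6 and IFI44 gave the same picture. ISG15 ran from 64.4 through 224.3 to 727.8 CPM in Takara control libraries and from 32.7 through 120.4 to 711.4 CPM at heat stress (log2 fold change −0.41, 95% interval −1.27 to 0.45). IFI6 ran from 174.3 through 258.3 to 746.3 CPM and from 88.5 through 227.7 to 938.4 CPM (log2 fold change −0.25, 95% interval −0.83 to 0.33). IFI44 ran from 10.5 through 24.6 to 76.4 CPM and from 6.00 through 17.5 to 71.3 CPM (log2 fold change −0.54, 95% interval −1.25 to 0.17). In plain CPM, IFI44 was lower at heat stress in 11 of 12 Takara calves, which held for 7.54% of all genes, and the median pair change of all genes was itself below 0 (−0.22 over the 12 calves). In Lexogen IFI44 was lower in 7 of 12 calves.

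USP18 was barely detected. In Takara libraries it ran from 0 through 0.472 to 1.18 CPM in control and from 0.126 through 0.607 to 3.43 CPM at heat stress, and it was higher in 8 of 12 calves. In Lexogen libraries it had no read in 12 of 13 control libraries and in 9 of 13 heat stress libraries, where a count of 0 allows up to 0.192 to 0.664 CPM in a library (3 counts, counting error only). The highest Lexogen value, 3.86 CPM from 226 reads, came from the deepest library, animal 15 at heat stress. The same RNA gave 1 read in Takara, 0.126 CPM, the lowest Takara value at heat stress. USP18 did not pass the filter on low counts and so has no main test. With no filter its log2 fold change in Takara was 0.89 (edgeR adjusted p = 0.20), and DESeq2 gave 0.96 (adjusted p = 0.15). In Lexogen these estimates were 2.52 (edgeR adjusted p = 0.29) and 0.29, far apart for a gene read in few libraries.

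**Figure D2:**
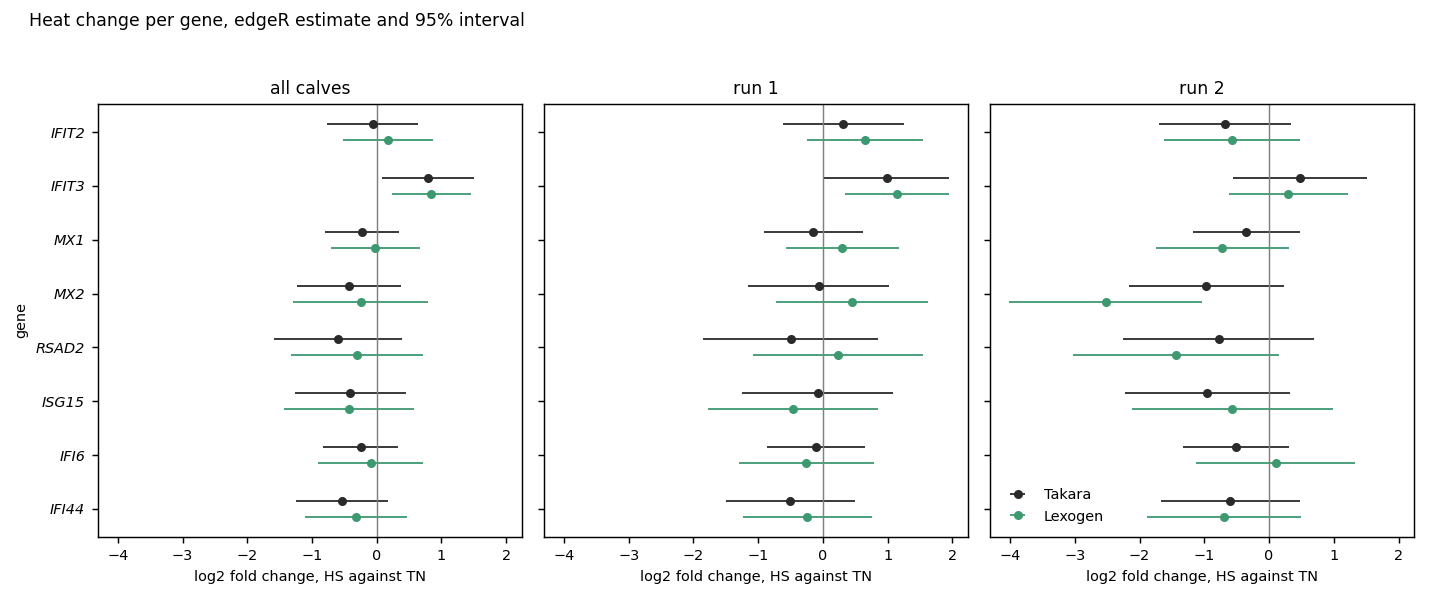
Log2 fold change at heat stress against control for each gene (horizontal axis, edgeR estimate with its 95% interval) over all calves, in run 1 and in run 2, black for Takara and green for Lexogen. Intervals of most genes cross 0, and those of IFIT3 over all calves and in run 1 and of MX2 in Lexogen run 2 do not.

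The runs were then compared. In run 1, edgeR called 0 of 8 genes in Takara (18.7% of 13767 genes passed) and 0 of 8 in Lexogen (3.6% of 13484). IFIT3 alone (1 gene) of the 8 had an unadjusted p below 0.05 in each kit, against 4887 of all genes in Takara and 2093 in Lexogen. DESeq2 called 0 in each. In run 2 of Takara, edgeR called 0 of 8 (12.7% of all genes passed), and 0 had an unadjusted p below 0.05 (4020 of all genes). In run 2 of Lexogen it called 0 of 8 (0% of all genes passed). MX2 alone had an unadjusted p below 0.05, 1 gene of 8, against 1300 of all genes. DESeq2 called 0 members in run 2 of Takara and 1, MX2, in run 2 of Lexogen. The log2 fold change of IFIT3 was 0.98 in run 1 and 0.48 in run 2 in Takara, and 1.14 and 0.29 in Lexogen. The order of the runs depends on how calves are matched. In Lexogen run 2 the estimate was 0.96 with the animal as a block and 1.01 without animal 7, whose control library has no heat stress partner, and it was 0.0039 without animal 14. The median change of IFIT3 within calves was 0.78 in run 1 and 1.08 in run 2 in Lexogen, and 0.36 and 0.35 in Takara, in plain CPM.

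MX2 in Lexogen run 2 had the largest estimate among the 8 genes. Its control levels were 8.62, 19.7, 20.1, 49.7, 55.0 and 128.7 CPM, and its heat stress levels were 0.683, 2.82, 3.14, 16.6 and 21.03 CPM. The highest control value, 128.7 CPM, is that of animal 7, which has no Lexogen heat stress library. In the 5 calves with both libraries, MX2 was lower at heat stress in 4, with a median log2 change of −2.50 in plain CPM. The 3 lowest heat stress values, of animals 16, 3 and 36, lie below every control value, and the other 2 lie within the control range. The log2 fold change was −2.52 ± 0.73 SE (edgeR adjusted p = 0.20, and DESeq2 adjusted p = 0.032, with a range of 0.032 to 0.89 over all alternatives). In run 1 it was 0.45 ± 0.58 SE, and the difference between the runs was −2.97 ± 0.92 SE (edgeR adjusted p = 0.33). The lowest value rests on 5 reads. The same RNA gave a smaller difference in Takara libraries: MX2 went from 34.4 to 6.36 CPM in animal 3, from 5.25 to 3.97 CPM in animal 36 and from 3.38 to 4.70 CPM in animal 16. The log2 fold change in Takara run 2 was −0.97 ± 0.58 SE (edgeR adjusted p = 0.28).

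A test of the difference between runs called 0 of 8 genes in Takara (2.27% of all genes passed), with 0 at an unadjusted p under 0.05, and 0 of 8 in Lexogen (0.0222% of all genes passed), with 1, MX2. Over all genes, 2236 of 13767 in Takara and 1060 of 13484 in Lexogen had an unadjusted p under 0.05 by edgeR. DESeq2 called 0 in each kit. The estimate was below 0 for 8 of 8 genes in Takara (median −0.46) and 7 of 8 in Lexogen (median −0.93), where negative means a lower heat change in run 2. These 8 genes vary together from calf to calf, so the shared sign is not 8 separate observations. ISG15 in Lexogen run 2 depends on how calves are matched: its log2 fold change was −0.57 with time and run alone and 1.11 with the animal as a block, which drops the control library of animal 7. In control libraries the runs differed in 0 of 8 genes in each kit (3.51% of all genes passed in Takara and 0% in Lexogen), with 0 at an unadjusted p under 0.05 by edgeR and 0 called by DESeq2. Over all genes, 2382 in Takara and 675 in Lexogen had such an unadjusted p.

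In some calves all 8 genes moved the same way, and the direction differed between calves. In Takara all 8 were lower at heat stress in animals 15, 41, 3 and 7, and all 8 were higher in animal 32. In Lexogen all 8 were lower in animals 41 and 3, and all 8 were higher in animals 19 and 32, while the other 8 calves were split, as in animal 36 with 5 genes higher and 3 lower. These are changes in plain CPM, on which the median gene of a calf moved by −0.72 to 0.09 in Takara (−0.65 in animal 15 and −0.37 in animal 7) and by −1.31 to 0.35 in Lexogen. In Takara IFIT3 was lower in CPM in animals 15 (−0.11) and 7 (−0.31), but in each it lay above that calf's median gene. The median log2 change of the 8 genes in plain CPM ran from −1.82 (animal 7) to 1.43 (animal 32) in Takara and from −1.14 (animal 40) to 0.86 (animal 19) in Lexogen.

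Animal 7 and animal 19 were at the top of the range. In control, animal 7 was the highest of 13 libraries for 7 of 8 genes in Takara and 6 of 8 in Lexogen. Its ISG15 level was 727.8 CPM in control and 77.2 CPM at heat stress in Takara, while the other 12 control libraries did not exceed 489.1 CPM in run 1 or 243.9 CPM in run 2. At heat stress, animal 19 was the highest for 7 of 8 genes in Takara and 6 of 8 in Lexogen, with ISG15 at 711.4 CPM in Takara and 246.6 CPM in Lexogen. Animal 16 had the lowest or nearly the lowest levels, with a median rank of 12 among 13 heat stress libraries in both kits.

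**Figure D3:**
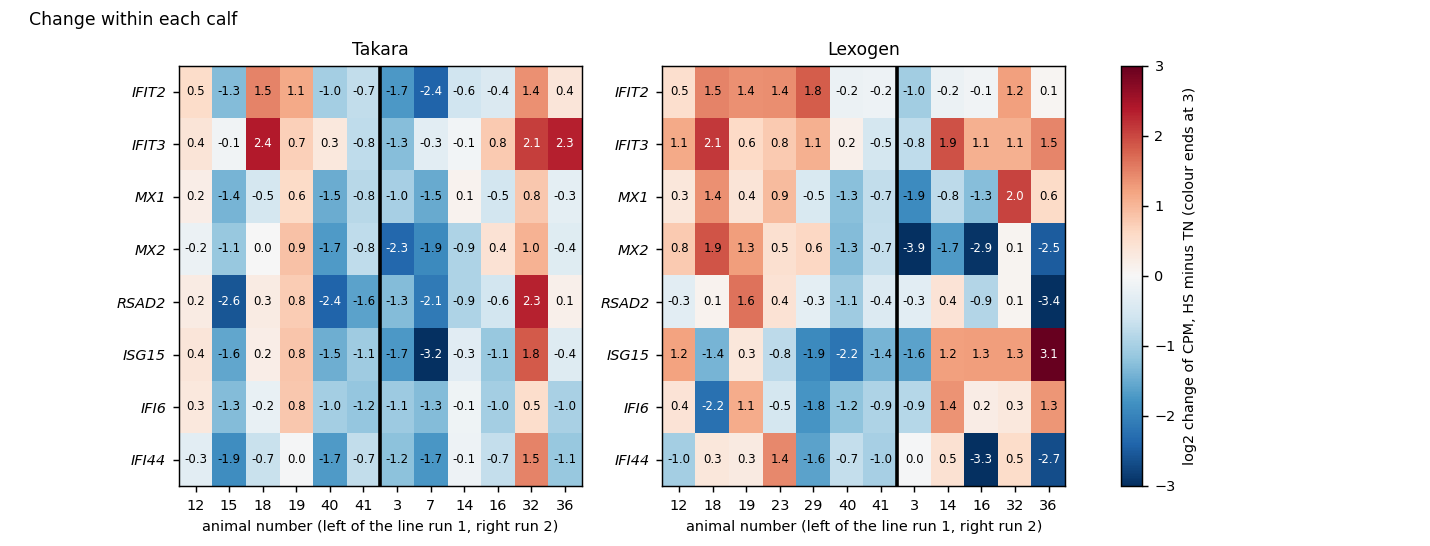
Log2 change of CPM from control to heat stress in each calf (columns, animal numbers, with run 1 left of the line) for each gene (rows), red for higher and blue for lower at heat stress, with the value in each cell. Whole columns share a colour, such as animal 32 (red) and animals 3 and 41 (blue) in both kits, and IFIT3 lies above the median of the other 7 genes in 11 of 12 columns of each kit.

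In control libraries the between-calf SD of log2 CPM had a median of 1.06 over the 8 genes in Takara, against 0.396 over all genes tested, and 1.03 against 0.848 in Lexogen. In Takara RSAD2 (SD 1.53) and MX2 (SD 1.24) varied most and IFI6 (SD 0.699) least. At heat stress the medians were 0.952 against 0.517 in Takara and 1.27 against 1.33 in Lexogen. In Lexogen at heat stress the 8 genes were thus not more variable than the median gene.

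The 8 genes varied together across the 26 libraries of a kit. The median Pearson correlation of log2 CPM over the 28 pairs of genes was 0.80 in Takara and 0.60 in Lexogen, as a description, since the libraries share calves and depth. The closest pair was RSAD2 and ISG15 in Takara (0.93) and IFI6 and ISG15 in Lexogen (0.86). IFIT3 was the least like the others, with a median correlation of 0.42 in Takara and 0.36 in Lexogen, and the lowest pair in both kits was IFI44 and IFIT3 (0.23 and 0.07). The change of IFIT3 within a calf was above the median of the other 7 genes in 11 of 12 calves in each kit, by a median of 0.99 log2 units in Takara and 1.04 in Lexogen. This contrast was chosen after the values were seen, and no test is given for it.

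Outside the 10 genes, the 8 genes whose level most resembled the group's mean in both kits were RIGI, IFIH1, CD274, ADAR, IFIT5, XAF1, ZBP1 and CTSS, in that order. Likeness was the smaller of the correlations in the kits over 26 libraries each, from 0.84 for RIGI to 0.70 for CTSS, where the median of the 9679 genes with a symbol and a test in both kits was −0.11. RIGI and IFIH1 are cytoplasmic sensors of viral RNA, ZBP1 senses nucleic acid in the Z form, ADAR edits double-stranded RNA, and IFIT5 and XAF1 are interferon-induced. CD274 encodes the checkpoint ligand PD-L1 and CTSS a lysosomal protease. Of these 8, 6 stand in the lists of interferon pathway genes used below.

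Genes upstream of the group were then described, with no test of the difference between them and the 8 genes. The lists, like the group, were chosen with earlier results of these data known. The share of all genes called in Takara, 28.9% (18.4% higher), is the background for each list below. In Lexogen the share was 5.55% (5.09% higher). Of 6 interferon receptor genes, 5 were tested, and 5 of 5 rose in Takara (median log2 fold change 1.14). IFNAR2 had a log2 fold change of 1.37 (edgeR adjusted p = 0.00148), IFNAR1 of 1.14 (0.00256), IFNGR1, a chain of the interferon gamma receptor, of 1.16 (0.0025), and IL10RB, shared by the interferon lambda and IL-10 receptors, of 0.52 (0.0138). In Lexogen 2 of 5 passed, IFNAR1 (1.03) and IFNAR2 (1.00), and both lost the call with the animal as a block (edgeR adjusted p = 0.27 and 0.12). IFNAR1 also lost it without any 1 of animals 12, 15, 18, 40 and 36, and IFNAR2 without any 1 of animals 18, 40, 16 and 36, with log2 fold changes from 0.80 to 1.00. IL10RB in Takara lost it with the block (edgeR adjusted p = 0.078) and with total counts as library size (log2 0.20, edgeR adjusted p = 0.15).

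Of 11 signalling genes, 3 were called in Takara, a share near the 28.9% of all genes called in either direction. All 3 rose, as did 18.4% of all genes, and all are kinases bound to receptors: JAK2 (0.88), TYK2 (0.85) and JAK1 (0.55). In Lexogen 0 of 11 passed by edgeR, with 5 at an unadjusted p under 0.05, where 1877 of 11108 genes had one. STAT2 (0.47) and IRF9 (0.42), which carry the type I signal to the nucleus, missed the threshold in Takara (edgeR adjusted p = 0.067 and 0.11). Of 6 feedback inhibitors, 4 rose in Takara: the phosphatase PTPN6 (1.16), SOCS3 (1.04) and SOCS1 (0.84), which block the kinases, and PIAS1 (0.80), a SUMO ligase. PTPN6 (1.54) and SOCS3 (1.02) also rose in Lexogen, where both lost the call with the animal as a block (edgeR adjusted p = 0.31 and 0.061), PTPN6 also without animal 12 (1.32) or animal 36 (1.27).

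Of 11 nucleic acid sensors and their adaptors tested, 2 rose in Takara, near the 18.4% of all genes that did. These were the endosomal RNA sensor TLR8 (1.48) and the adaptor MYD88 (1.68). In Lexogen 1 rose, MYD88 (1.41, edgeR adjusted p = 0.11 with the block). None of the 9 interferon genes listed had enough reads to be tested in either kit. Of 11 genes typical of interferon gamma tested in Takara, 3 were called, again near the share of all genes. WARS1, a tryptophanyl-tRNA synthetase, rose (1.10), and PSMB9 (−0.45) and PSMB10 (−0.41), subunits of the immunoproteasome, fell. PSMB10 was near the threshold (edgeR adjusted p = 0.047) and DESeq2 did not call it (adjusted p = 0.050). It lost its call in 3 of 8 other settings and without any 1 of 10 of the 14 calves (edgeR adjusted p up to 0.11). PSMB9 lost the call without animal 40 (−0.41) or animal 7 (−0.37) and WARS1 without animal 18 (0.81). In Lexogen 0 of 10 passed by edgeR, with 0 at an unadjusted p under 0.05.

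The group nearest in kind is that of 48 other interferon-stimulated effectors, of which 42 were tested in Takara. Of these, 4 rose (ISG20, SAMD9, UBE2L6 and TDRD7) and 2 fell (LY6E and RTP4), with a median log2 fold change of −0.09. ISG20, an RNA exonuclease, had a log2 fold change of 1.42, SAMD9, which inhibits translation in poxvirus infection, of 1.18, and UBE2L6, the E2 enzyme that carries ISG15, of 1.17. In Lexogen 1 of 40 rose, ISG20 (1.30), and 1 fell, the nuclear body protein SP110 (−0.62), and neither kept its call with the animal as a block (edgeR adjusted p = 0.12 and 0.091), and each lost it without any 1 of 10 of the 14 calves. The share called, 6 of 42 in Takara, can be read against the 28.9% of all genes.

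**Figure D4:**
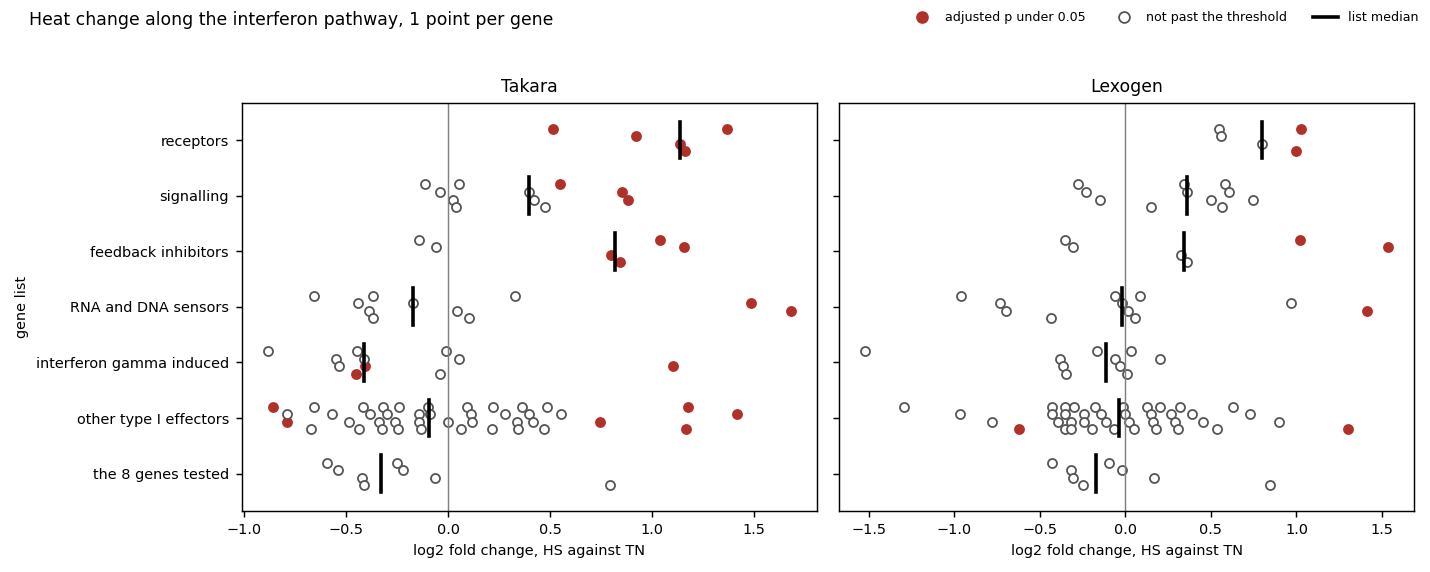
Log2 fold change at heat stress against control (horizontal axis) of each tested gene in the pathway lists and of the 8 genes, filled for an edgeR adjusted p under 0.05, with black bars for list medians. Receptors lie to the right of 0 in both kits (median 1.14 in Takara), while the 8 genes are open symbols with medians of −0.33 and −0.17.

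Blood is a mixture, and in such samples fewer cells of a type and less RNA per cell cannot be told apart. The summed level of the 8 neutrophil markers measured (of 9 listed) ran from 4262 through a median of 13218 to 19626 CPM in Takara control libraries and from 4504 through 41730 to 75664 CPM at heat stress. In Lexogen it ran from 1421 through 3820 to 7198 CPM and from 1880 through 10722 to 31552 CPM. In Takara 6 of the 8 neutrophil markers tested rose (18.4% of all genes did), among them S100A8, S100A9 and CXCR2, and in Lexogen 5 of 8 (5.09% of all genes). The summed level of 6 T cell markers (of 7 listed) ran from 768.6 through 1020 to 1680 CPM in Takara control libraries and from 311.4 through 648.3 to 1364 CPM at heat stress. Of these markers 3 of 6 (CD3D, CD3E and CD3G) fell in Takara, where 10.5% of all genes did. In Lexogen 0 of 6 were called by edgeR, where 0.459% of all genes fell, and 0 had an unadjusted p under 0.05. Their median log2 fold change there was −0.28, against −0.08 over all genes. Summed monocyte markers had medians of 995.2 and 946.7 CPM in Takara over all calves, with CD163 and VCAN called higher, and moved differently in the runs: from 1523 to 954.4 CPM in run 1 and from 603.2 to 939.5 CPM in run 2. The run difference of the 6 monocyte genes in Takara had a median of 1.40 on the log2 scale, while that of the 8 antiviral genes had a median of −0.46. By edgeR 0 of 6 monocyte genes were called (2.27% of all genes) and 4 of 6 had an unadjusted p under 0.05 (2236 of 13767 genes). In control libraries the median of the monocyte genes was −1.08 in run 2 against run 1. Of these genes 1 of 6 was called by edgeR (CSF1R, 3.51% of all genes), and 5 of 6 had an unadjusted p under 0.05 (2382 of 13767 genes). Summed B cell markers had medians of 576.2 CPM in control and 419.0 CPM at heat stress in Takara, and 389.8 and 275 in Lexogen. Those of 4 plasmacytoid dendritic markers (of 5 listed) were 395.5 and 246.3 CPM, and 267.4 and 242.1 CPM. Those of NK and cytotoxic markers were 421.2 and 361.9 CPM, and 56.3 and 98.8 CPM. In each kit 0 of 5 B cell and 0 of 3 plasmacytoid dendritic genes tested were called, and NCR1 of the cytotoxic genes rose. At most 1 of the neutrophil, T cell and monocyte markers was at 0 in any library. Summed platelet markers had medians of 2486 CPM in control and 2074 CPM at heat stress in Takara, and 840.5 and 849.8 CPM in Lexogen. Those of erythroid markers were 1729 and 928.6 CPM, and 335.4 and 258.9 CPM. Leukocyte markers were thus present, together with those of platelets and red cells. The part of cell composition in the values of the 8 genes and of the receptors was not tested.

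The kits were compared in the 24 RNA samples with a library of each. The heat change differed between kits in 0 of 8 genes (0% of 13354 genes passed). By edgeR, the only tool run for this comparison, 0 of 8 had an unadjusted p under 0.05, against 526 of all genes. The estimates (Takara minus Lexogen) ran from −0.34 for ISG15 (95% interval −1.02 to 0.34) to 0.41 for MX2 (95% interval −0.40 to 1.21). For IFIT3 the difference was −0.10 (95% interval −0.54 to 0.33). Among the 10 calves with both times in both kits, IFIT2 changed in the same direction in 10 of 10 and IFIT3 in 9 of 10, while ISG15 did so in 6 of 10 and the other 5 tested genes in 7 of 10.

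Levels, in contrast, depended on the kit. Of the 8 genes, 7 differed, 4 higher and 3 lower in Takara, where 72.3% of 12447 genes did (44.5% higher and 27.8% lower). The median log2 difference of all genes was 0.41, and 0.72 with total counts as library size. IFI6 had a Takara level 9.81 times the Lexogen level (log2 3.29 ± 0.14 SE, edgeR adjusted p = 4.97e-19) and was higher in 24 of 24 RNA samples, with medians of 233.5 and 24.4 CPM. IFIT3 was also higher in 24 of 24 (439.7 against 133.2 CPM, log2 1.33 ± 0.11 SE, edgeR adjusted p = 1.83e-12), and ISG15 in 22 of 24 (150.3 against 65.6 CPM, log2 0.97 ± 0.17 SE). IFIT2 went the other way and was higher in Takara in 1 of 24 (238.1 against 435.6 CPM, log2 −1.005 ± 0.08 SE, edgeR adjusted p = 1.12e-12). MX2 (log2 −1.17 ± 0.20 SE) and IFI44 (log2 −0.89 ± 0.17 SE) were also lower in Takara.

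RSAD2 (log2 0.40 ± 0.17 SE, edgeR adjusted p = 0.037) and MX1 (log2 0.17 ± 0.10 SE, edgeR adjusted p = 0.14) lay near the threshold, and both depend on the processing. With sense-strand counts RSAD2 was at 0.17 (edgeR adjusted p = 0.37) and MX1 at −0.07, and with total counts as library size MX1 was at 0.48 (edgeR adjusted p = 0.00015). RSAD2 also lost its call without any 1 of 9 of the 14 calves, with the estimate between 0.21 and 0.40. Of the 3 highest of the 12 control RNA samples measured with both kits, 2 or 3 were the same calves in each of the 8 genes.

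**Figure D5:**
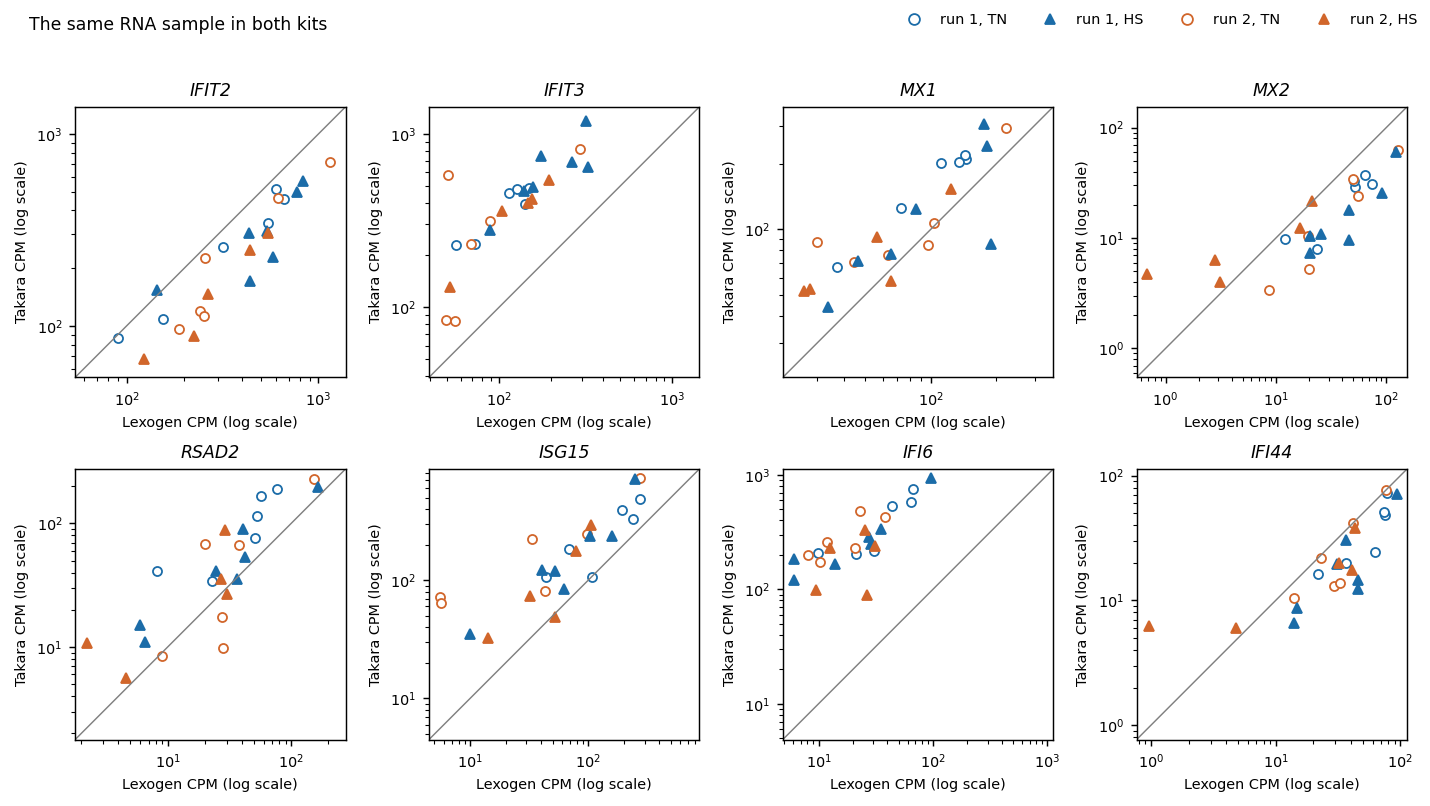
Takara level against Lexogen level of the same RNA sample in CPM (log axes, grey line of equality), open circles for control and triangles for heat stress, blue for run 1 and orange for run 2. IFI6 and IFIT3 lie above the line in 24 of 24 samples and IFIT2 below it in 23 of 24.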

How the data were processed

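The deposited values are raw counts of reads per gene, 1 table per library, made by the authors with STAR 2.7.10b against ARS-UCD2.0 after trimming with Trimmomatic 0.39. Each table has an unstranded, a sense and an opposite-strand column and 4 rows of totals, which were left out of library sizes. The unstranded counts were used. Symbols matched RefSeq for 30271 of 32637 genes. Some items are not reported here. No sequences are printed because no sequence tables were used here.

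CPM are counts scaled to the total on genes, and pair changes add 0.5 CPM. Times were compared per kit with edgeR 4.0.16 (filterByExpr, TMM, quasi-likelihood test, Benjamini-Hochberg over all genes tested) on time alone, and runs (sample number below or above 200) with 1 mean per run and time. Kits were compared with the RNA sample as a block. DESeq2 1.42.0 in R 4.3.3 was an alternative. Reads carry no molecular identifiers, so intervals and limits for single libraries cover counting error only. No libraries were identical.

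Animal numbers in the labels pair the libraries. Deviations of the same animal at both times correlated with a median r of 0.23 in Takara (over 0.1 in 11 of 12 calves) and 0.02 in Lexogen (2 of 12). Time alone follows the model the authors used. The model was tested on simulated data, drawn with no effect of the calf. A 2-fold heat change was called for 81.25% of changed genes in Takara and 21.9% in Lexogen. For a 2-fold run difference these shares were 11.3% and 0%. Of the calls for the run difference, 3.85% were false in Takara and 11.8% in Lexogen. The members and lists were chosen with earlier results of these data known. All members are named. Pathway genes are named where they passed the threshold in a kit or run, at most 4 per list by smallest p, and STAT2, IRF9, TDRD7, LY6E, RTP4 and the cell markers were added after their values were seen.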

Additional observations from a re-analysis of the deposited data

Results flagged for a closer look

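Within a group of 4 to 10 libraries, a value was picked out when its distance from the nearest other value was large for the range of the group on the log2 scale (Dixon's criterion). This happened in 5 of 71 groups, and chance gives about 1 in 20. MX1 in Takara control libraries of run 2 was 293.5 CPM in animal 7, where the next value was 107.4 CPM. IFIT3 in Lexogen control libraries of run 2 was 292.9 CPM in the same animal, where the next was 88.9 CPM. Animal 7 was thus picked out in each kit for a different gene, and neither gene was picked out in both kits. The other 3 were values of USP18 in Lexogen libraries, where most libraries had no read: 3.86 CPM in animal 15 at heat stress in run 1, and in animal 36 of run 2, 0.983 CPM in control and 0.304 CPM at heat stress.

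In Takara the heat change differed between the runs by edgeR in 1 of the 11 nucleic acid sensors and adaptors tested. It differed in 0 genes of the other pathway lists, where 2.27% of 13767 genes passed. STING1, the adaptor of the cytoplasmic DNA sensor, had a log2 fold change at heat stress of −0.91 in run 1 (edgeR adjusted p = 0.011) and 0.37 in run 2 (edgeR adjusted p = 0.33) in Takara, a difference of 1.28 ± 0.34 SE (edgeR adjusted p = 0.041). The direction of the difference held in all alternatives run, but the call was lost in 5 of 7 other settings (edgeR adjusted p = 0.11 with the animal as a block) and without any 1 of 10 of the 14 calves, where without animal 32 it was 1.05 with an edgeR adjusted p = 0.15. In Lexogen the difference was 0.48 ± 1.13 SE. In Takara control libraries STING1 was already called lower in run 2 than in run 1 by edgeR (3.51% of all genes passed). The same control libraries enter the run difference of the heat change. None of the 8 antiviral genes passed the threshold for a run difference in either kit. The largest estimate among them was that of MX2 in Lexogen, −2.97 ± 0.92 SE (edgeR adjusted p = 0.33).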

How the results depend on the processing

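The count of antiviral genes called stayed at 0 in the heat comparisons and the run differences under the alternatives run, with these exceptions. IFIT3 was called in Lexogen with no filter on low counts (1 gene, log2 0.81, edgeR adjusted p = 0.046), MX2 was called in Lexogen run 2 by DESeq2 (1 gene), and leaving out 1 calf gave 0 to 1 genes in Takara (IFIT3, without animal 3) and 0 to 1 in Lexogen (IFIT3, without animal 7). Over the alternatives that keep all calves, the edgeR or DESeq2 adjusted p of IFIT3 ran from 0.056 to 0.24 in Takara and from 0.046 to 0.17 in Lexogen. The kit difference of level called 6 to 8 of the 8 genes. Total counts as library size moved the median log2 fold change of all genes in Takara from −0.05 to −0.27 and that of the 8 genes from −0.33 to −0.50, and the split of all calls from 2325 of 3646 higher to 1303 of 3488.

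Some estimates changed sign, none of them past the threshold before or after. With the animal as a replicate block, the run difference in Takara was 0.086 for IFI44 and 0.20 for RSAD2, the log2 fold change of ISG15 in Lexogen run 2 was 1.11, and the run difference in Lexogen was 1.90 for ISG15 and 0.075 for IFIT3. The block changed no call among the 8 genes, but took all calls in Lexogen from 616 to 66, in Takara run 1 from 2574 to 764, in Takara run 2 from 1750 to 1122, in Lexogen run 1 from 486 to 84 and for the run difference in Takara from 312 to 171. With total counts the run difference was 0.016 for IFI44 in Takara and 0.21 for ISG15 in Lexogen. DESeq2 gave 0.00017 for MX1 in Lexogen, and sense counts gave −0.072 for the kit difference of MX1.

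Leaving out 1 calf gave ranges that include 0. In Takara these were −0.21 to 0.17 for IFIT2, in run 1 −0.44 to 0.13 for MX2, −0.37 to 0.0082 for MX1, −0.45 to 0.15 for IFI6 and −0.51 to 0.17 for ISG15, in run 2 −0.60 to 0.033 for MX1, and for the run difference −0.45 to 0.18 for MX1, −0.51 to 0.32 for IFI44 and −0.86 to 0.47 for RSAD2. In Lexogen they were −0.58 to 0.031 for MX2, −0.23 to 0.17 for MX1, −0.44 to 0.033 for IFI6 and −0.89 to 0.087 for RSAD2, in run 1 −0.43 to 0.49 for RSAD2, in run 2 −0.17 to 0.44 for IFI6 and −1.03 to 0.49 for ISG15, and for the run difference −0.56 to 0.94 for ISG15. The kit difference of MX1 ran from −0.037 to 0.21. The cause of these changes was not tested.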
